A study of Phaseolus vulgaris with 6 samples.

Results

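The MYB transcription factor genes described here have Arabidopsis namesakes that act in wall thickening, and their RNA was measured in the stem tips of common bean, Phaseolus vulgaris. They are 6 of the 27012 genes in the deposited table and were picked by identifier: MYB85 (Phvul.003G214300), MYB20 (Phvul.001G229900), MYB42 (Phvul.002G060500), MYB26 (Phvul.005G157600) and the MYB103 genes Phvul.002G159700 and Phvul.002G292600. The names come from the table's gene descriptions, which carry the number of the closest Arabidopsis gene. RNA was sequenced from the top stems of the nts mutant (3 samples) and of its wild type A18 (3 samples). Plants stood in pots at 25 °C with 14 h of light and 10 h of dark and were sampled at first flowering, when the mutant's stem tips looked different from the wild type's. The labels give genotype only, do not say which gene nts affects, and do not state whether different plants were used for each sample. The p-values measure the spread between these samples, which may be technical.

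MYB proteins bind DNA through repeats of a conserved domain, and in plants many of them switch on whole pathways. In Arabidopsis, NAC factors of the VND and NST groups start secondary wall deposition in xylem vessels and fibres, and they do so largely through MYB46 and MYB83. MYB20, MYB42, MYB85 and MYB103 stand below these and activate genes of lignin, cellulose and xylan synthesis. MYB26 stands above the NST factors and is known for the wall thickening that lets Arabidopsis anthers open.

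Of the 6 genes, 5 were lower in nts than in A18 and MYB26 was detected in nts alone. MYB85 fell and was the only one of the 6 that passed the test over all genes (edgeR quasi-likelihood test, Benjamini-Hochberg adjusted p under 0.05). Of the 21126 genes tested, 0.0615% were called lower and 0.0331% higher by this rule. The study's design text uses looser thresholds, an unadjusted p up to 0.05 with an absolute log2 change from 2 upwards. By these 4 of the 6 were lower and MYB26 was higher, against 3.37% of tested genes lower and 2.06% higher. By the same thresholds 3 of the 6 were lower without nts replicate 1, nts replicate 2, A18 replicate 1 or A18 replicate 3. Over all genes these fits had, in that order, 644 of 21543, 734 of 21559, 640 of 21467 and 641 of 21574 lower. They had 369, 407, 391 and 379 genes higher. Without A18 replicate 2, 2 of the 6 were lower, against 3.9% of tested genes lower and 4.29% higher. MYB26 was higher in each of these fits. At an unadjusted p under 0.05 regardless of size, 5 were lower and 1 was higher, against 9.58% and 8.39% of tested genes. In each of the 6 genes the libraries of the genotypes did not overlap, with nts below A18 in 5 and above it in 1, which holds for 14.3% and 10% of tested genes. The 6 genes were chosen with earlier results of these data known. Their counts therefore describe them and do not test them against these shares. All 6 passed the filter on low counts, MYB26 through its nts libraries alone. A stem tip holds many cell types, so fewer cells of a type and less RNA per cell cannot be told apart.

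**Figure D1:**
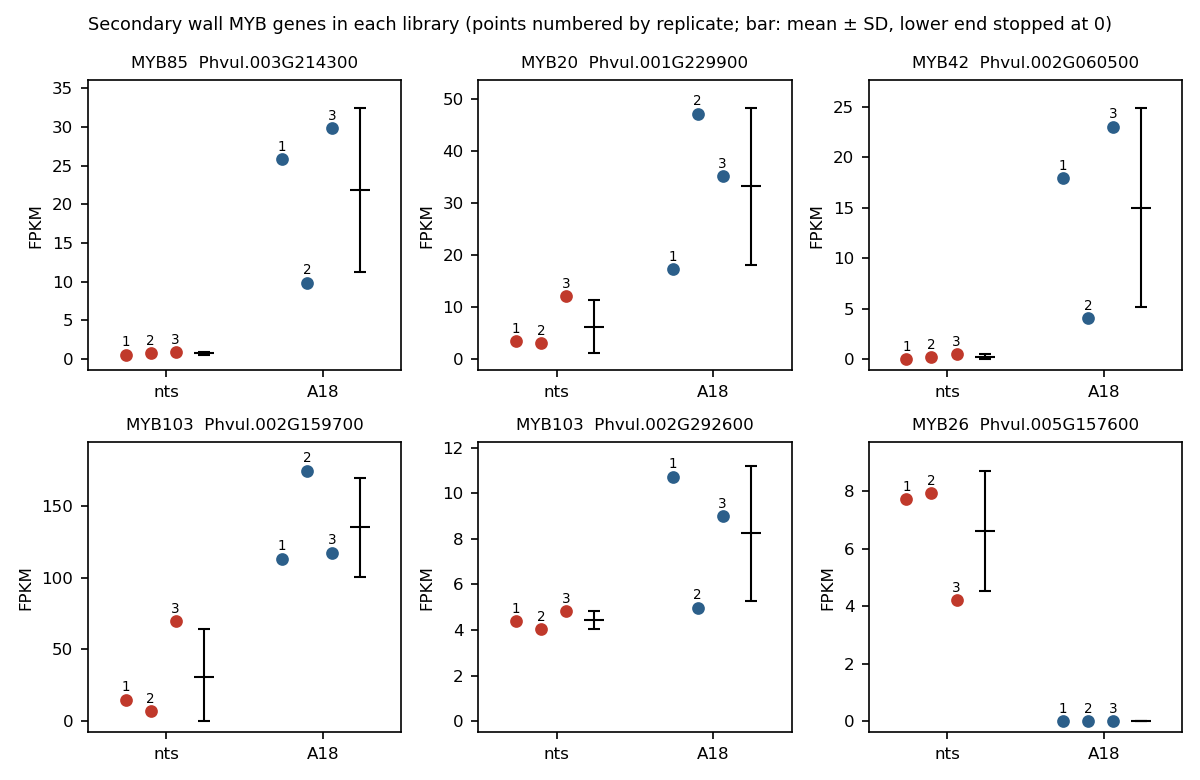
FPKM, the fragment level scaled to transcript length and depth, of the 6 MYB genes in each library, nts left and A18 right, points numbered by replicate, with the mean and SD (n = 3) beside them; each panel has its own linear axis. MYB26 is at 0 in the 3 A18 libraries and between 4.21 and 7.93 in the 3 nts libraries, while the other 5 genes are lower in every nts library than in any A18 library.

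MYB85, an activator of lignin genes in Arabidopsis stems, lies on chromosome 3 from 44101442 to 44103212 on the plus strand, in the coordinates of the table, whose genome build is not given in the sources used here. It had 0.555, 0.733 and 0.905 FPKM in nts replicates 1, 2 and 3, against 25.9, 9.89 and 29.9 FPKM in A18 replicates 1, 2 and 3. The nts libraries lay close together and the lowest A18 library, replicate 2, still stood well above them. The edgeR log2 change was -4.77 ± 0.48 (SE, n = 3 per genotype; adjusted p = 0.0397), and by unadjusted p MYB85 ranked 19 of 21126. MYB85 was no longer called by edgeR when nts replicate 1 (adjusted p = 0.198), nts replicate 2 (adjusted p = 0.141), A18 replicate 1 (adjusted p = 0.151) or A18 replicate 3 (adjusted p = 0.153) was left out, with log2 changes from -4.74 to -4.50.

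MYB42, which belongs with MYB85 to the Arabidopsis group that activates phenylalanine and lignin synthesis, lies on the minus strand of chromosome 2 from 6657196 to 6658583. It had 0, 0.191 and 0.492 FPKM in nts replicates 1, 2 and 3, against 17.9, 4.04 and 23.0 FPKM in A18 replicates 1, 2 and 3. The 0 in nts replicate 1 allows up to 3 counts in that library, or 0.0511 FPKM, by counting error alone. Of the counts from 1 to 39 in a library, 29.84% to 32.99% were multiples of 4, where 23.1% of these whole numbers are, so a sequenced fragment may add more than 1 count and such floors hold in the table's own counts. Its ratio of mean levels was the most extreme of the 5 lower genes, 65.9-fold lower in nts, but its libraries also spread widely, with a coefficient of variation of 109% in nts and 65.5% in A18. The log2 change of -5.88 ± 1.31 (SE, n = 3 per genotype) did not pass the edgeR test over all genes (adjusted p = 0.103). It was -5.26 without nts replicate 1 (edgeR adjusted p = 0.227) and -7.09 without nts replicate 3 (edgeR adjusted p = 0.0600).

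MYB20, the third gene of the lignin-activating group, lies on the plus strand of chromosome 1 from 48413725 to 48415740. It had 3.43, 3.08 and 12.1 FPKM in nts replicates 1, 2 and 3, against 17.2, 47.2 and 35.2 FPKM in A18 replicates 1, 2 and 3. Here A18 replicate 2 was the highest library and A18 replicate 1 the lowest of its genotype. The log2 change was -2.36 ± 0.70 (SE, n = 3 per genotype; edgeR adjusted p = 0.163), and -3.32 with a call (edgeR adjusted p = 0.0440) without nts replicate 3. Unlike MYB42, MYB20 was still readily detected in every nts library, with 203 to 649 counts.

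MYB103 is known in Arabidopsis as an activator of the enzyme that leads to syringyl lignin, and the table attaches that term to both bean genes. Phvul.002G159700 (chromosome 2, minus strand, 31434348 to 31436221) had 14.9, 7.01 and 69.5 FPKM in nts replicates 1, 2 and 3, against 113, 174 and 117 FPKM in A18 replicates 1, 2 and 3. The nts libraries differed among themselves by more than those of A18, with a coefficient of variation of 112% in nts and 25.4% in A18. The log2 change was -2.07 ± 0.85 (SE, n = 3 per genotype; edgeR adjusted p = 0.273), and leaving out nts replicate 3 gave -3.57 with a call (edgeR adjusted p = 0.0332).

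Phvul.002G292600 (chromosome 2, minus strand, 46143855 to 46146202) was the gene that differed least. It had 4.40, 4.05 and 4.83 FPKM in nts replicates 1, 2 and 3, against 10.7, 4.98 and 9.00 FPKM in A18 replicates 1, 2 and 3. The highest nts library and the lowest A18 library were nearly level. The log2 change was -0.79 ± 0.32 (SE, n = 3 per genotype; edgeR adjusted p = 0.267).

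The genes described as MYB103 sit 14708 kb apart and share their surroundings. Of the 10 genes on each side of either gene, 8 descriptions occur on both, among them a MAP kinase 4, an RNA binding Plectin/S10 protein, a SPIRAL1-like2 and a POX family homeobox protein. The next highest number for any of the 15 pairs among the 6 genes was 3, for MYB85 with MYB42, and 11 pairs shared none. Levels of the MYB103 genes were unequal in each library: Phvul.002G159700 had 3.40, 1.73 and 14.4 times the FPKM of Phvul.002G292600 in nts replicates 1, 2 and 3, against 10.6, 35.1 and 13.0 times in A18 replicates 1, 2 and 3. On the log2(FPKM + 1) scale this ratio averaged 1.94 ± 1.50 in nts and 3.91 ± 0.85 in A18 (SD, n = 3 each). The difference of -1.97 was within what relabelling the samples gave (exact two-sided permutation test, p = 0.3, where 3 against 3 cannot go below 0.1), and nts replicate 3 overlapped with A18. How reads that match both genes were assigned is not stated, so the split between them is uncertain.

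MYB26 went the other way. The gene lies on the minus strand of chromosome 5 from 38639107 to 38640230, overlaps no other gene of the table and has its nearest neighbour 10496 bases away. It had 7.73, 7.93 and 4.21 FPKM in nts replicates 1, 2 and 3, against 0 counts in A18 replicates 1, 2 and 3. In counts these were 422, 418 and 181 in nts. Against a floor of 3 counts per library, which in A18 is 0.0531 to 0.0818 FPKM, MYB26 was at least 100.7-fold higher in nts. MYB26 just missed the test over all genes (edgeR adjusted p = 0.0541, rank 29 of 21126 by unadjusted p). It was called higher without A18 replicate 2 (edgeR adjusted p = 0.0219) and without nts replicate 3 (edgeR adjusted p = 0.0253).

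A cut-off of 181 counts, the lowest nts count of MYB26 itself, was used to look for genes with such a pattern. MYB26 therefore meets it by choice. Over all genes, 3 had 0 counts in every A18 library and at least 181 in every nts library, MYB26 among them. The reverse, 0 in every nts library and at least 181 in every A18 library, held for 4 genes. The others of the first kind were a leucine-rich repeat protein kinase (Phvul.005G163800), 489 kb from MYB26 on the same chromosome, and an HXXXD-type acyl-transferase (Phvul.006G098800) on chromosome 6. The kinase had 8.74, 15.6 and 1.92 FPKM in nts replicates 1, 2 and 3, so it too was lowest in nts replicate 3.

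The 6 genes did not share an order of libraries. In all 6, nts replicate 3 was the nts library nearest to A18. On the A18 side the library nearest to nts was replicate 2 for MYB85, MYB42 and Phvul.002G292600 but replicate 1 for MYB20 and Phvul.002G159700. These libraries, A18 replicate 2 and nts replicate 3, are also those that stood between the genotypes over all genes: their log2 CPM correlated at r = 0.881 with each other, against 0.774 to 0.801 for the other 4 libraries across genotypes. With both left out, all 6 genes were called, 5 lower and 1 higher (edgeR adjusted p from 0.00323 to 0.0473). In that fit 10.3% of tested genes were called lower and 9.67% higher. Both libraries were picked as intermediate in these same data. That choice favours a wider gap between the genotypes, so these calls are no separate evidence.

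The number of the 6 that was called differed between settings, as did the share of all genes. The settings reported here, size factors by the RLE method and upper quartile factors gave 1 of the 6, with 0.0947% and 0.104% of genes under these other factors. No filter on low counts gave 2 of the 6 and 0.159% of genes, limma on log2(FPKM + 1) gave 3 and 2.17%, and limma on log2(FPKM + 0.1) gave 3 and 2.07%. DESeq2 gave 4 of the 6 and 10.5% of genes, limma voom with quality weights gave 6 and 24.1%, and edgeR without A18 replicate 2 and nts replicate 3 gave 6 and 19.9%. Leaving out A18 replicate 2 alone gave 2 of the 6 and 4.38% of genes, and leaving out nts replicate 3 alone gave 4 and 4.45%. Leaving out nts replicate 2 gave 0 of the 6 and 0.00464% of genes, and leaving out nts replicate 1, A18 replicate 1 or A18 replicate 3, or adding a replicate block, gave 0 of the 6 and 0 genes.

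**Figure D2:**
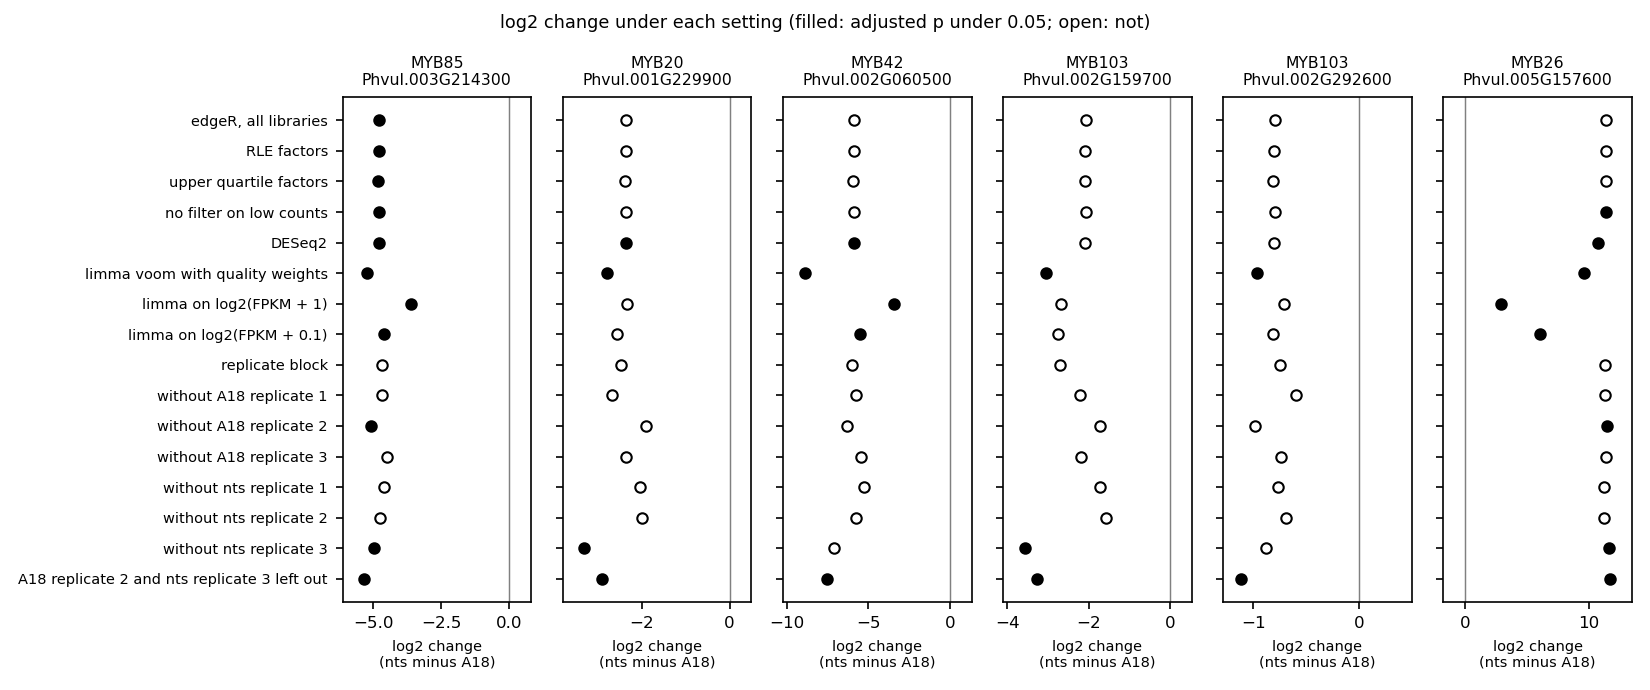
The log2 change (nts minus A18) of each MYB gene under each setting, one row per setting, filled where the adjusted p was under 0.05 and open where it was not. All 5 lower genes stay left of 0 and MYB26 right of 0 in every row, while the filled points differ from row to row, from 0 of 6 with a replicate block to 6 of 6 without A18 replicate 2 and nts replicate 3.

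Ranked by FPKM, Phvul.002G159700 was the most abundant of the 6 in both genotypes. In nts it averaged 30.5 ± 34.05 FPKM, followed by MYB26 at 6.62 ± 2.09, MYB20 at 6.21 ± 5.13, Phvul.002G292600 at 4.43 ± 0.390, MYB85 at 0.731 ± 0.175 and MYB42 at 0.228 ± 0.248 (mean ± SD, n = 3). The ranges of the first 4 overlapped from each to the next, and those of Phvul.002G292600, MYB85 and MYB42 did not. In A18 Phvul.002G159700 averaged 135 ± 34.3 FPKM, followed by MYB20 at 33.2 ± 15.1, MYB85 at 21.9 ± 10.6, MYB42 at 15.01 ± 9.84, Phvul.002G292600 at 8.23 ± 2.95 and MYB26 at 0 (mean ± SD, n = 3). There the first stood apart from the second, and the next 4 overlapped from each to the next. The 6 genes together came to 31.0, 23.0 and 92.1 FPKM in nts replicates 1, 2 and 3, against 185, 241 and 214 FPKM in A18 replicates 1, 2 and 3. Phvul.002G159700 made up 48.1%, 30.5% and 75.5% of that sum in nts replicates 1, 2 and 3, and 61.2%, 72.5% and 54.7% in A18 replicates 1, 2 and 3.

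A further 3 genes carry the numbers of these 6, and none was called in the edgeR test over all genes. MYB20 Phvul.008G236500 averaged 2.91 ± 3.44 FPKM in nts and 6.22 ± 4.72 in A18 (SD, n = 3; edgeR adjusted p = 0.676). MYB103 Phvul.006G061600 averaged 1.15 ± 0.444 FPKM in nts and 2.06 ± 0.488 in A18 (edgeR adjusted p = 0.481, n = 3). MYB26 Phvul.010G137500 had 3.71, 3.81 and 0.610 FPKM in nts replicates 1, 2 and 3, against 0, 0 and 0.533 FPKM in A18 replicates 1, 2 and 3. Its groups did not overlap, nts replicate 3 was again the lowest of nts, and the log2 change of 4.01 ± 1.77 did not pass (edgeR adjusted p = 0.303, n = 3).

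Markers of the cell types in which these factors are known to act had a lower summed level in each nts library than in any A18 library. The 34 xylem and fibre markers are 22 FASCICLIN-like proteins 11 and 12 with cellulose synthase A4, laccase 17 and xylem peptidases, and 29 of them also stand in the lists of wall genes described further on. They summed to between 503 and 2459 FPKM in the nts libraries and between 5927 and 9740 FPKM in the A18 libraries, with none at 0 in all libraries, 24 lower and 0 higher at an unadjusted p under 0.05, and 1 called. Over all tested genes 9.58% were lower and 8.39% higher at that unadjusted p. The 21 phloem markers summed to between 888 and 1016 FPKM in nts and between 828 and 1238 FPKM in A18, with 4 lower and 0 higher at an unadjusted p under 0.05. The 33 leaf mesophyll markers, which stem tips also express, summed to between 23999 and 26122 FPKM in nts and between 14526 and 26411 FPKM in A18, and 21 of them were higher in nts at an unadjusted p under 0.05. The 40 shoot meristem markers summed to between 670 and 892 FPKM in nts and between 722 and 1025 FPKM in A18, and 16 of them were at 0 in every library. Of the 22 meristem markers tested, 5 were lower and 1 higher in nts at an unadjusted p under 0.05. Of 85 tested seed markers, 15 were lower and 14 higher by that rule. The 10 epidermis and cuticle markers summed to between 126 and 724 FPKM in nts and between 99.3 and 256 FPKM in A18, and of the 6 tested 4 were higher and 0 lower in nts at an unadjusted p under 0.05, with a median log2 change of 6.04. Xylem, phloem, mesophyll and meristem markers were thus all detected in both genotypes. The part of these cell types in the levels of the MYB genes was not tested.

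Set against the xylem and fibre markers of the same library, the genes differed. Per 1000 FPKM of summed markers, MYB85 had 0.481, 1.46 and 0.368 FPKM in nts replicates 1, 2 and 3, against 2.65, 1.67 and 3.44 in A18 replicates 1, 2 and 3. MYB42 likewise did not overlap, at 0 to 0.380 in nts and 0.682 to 2.66 in A18. MYB20 ranged from 2.96 to 6.12 in nts and from 1.77 to 7.96 in A18, and Phvul.002G159700 from 12.9 to 28.3 in nts and from 11.6 to 29.4 in A18, so that both overlapped. Phvul.002G292600 was the reverse, at 1.96 to 8.05 in nts and 0.839 to 1.10 in A18. MYB26 was at 1.71 to 15.8 in nts and at 0 in A18. Most of the markers also stand in the lists of wall genes, and their own median log2 change was -4.915. A gene that fell less than their sum therefore comes out higher in nts on this scale. The ratios do not give levels per xylem cell. They were added after the levels had been seen and carry no test.

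NAC factors of the VND and NST groups stand above MYB20, MYB42, MYB85 and MYB103 in Arabidopsis. The list used here holds NAC numbers from different steps of the programme, so it does not single out the factors above the MYB genes. The genes named from it carry the numbers 73 and 75 and are not described as VND or NST factors. Among 12 tested NAC genes with numbers of the secondary wall programme, 11 were below 0 with a median log2 change of -1.08, where the median of all tested genes was 0.00. None was called by edgeR over all genes, 5 were lower and 0 higher at an unadjusted p under 0.05, and DESeq2 called 5 lower, against 6.02% of genes lower and 4.44% higher over all genes it tested. NAC domain containing protein 73 (Phvul.005G100100), the number of the wall regulator SND2, had 2.15, 4.91 and 28.4 FPKM in nts replicates 1, 2 and 3, against 140, 185 and 277 FPKM in A18 replicates 1, 2 and 3 (edgeR adjusted p = 0.129). A further NAC 73 gene, Phvul.002G328700, averaged 14.6 ± 10.5 FPKM in nts and 78.7 ± 27.1 in A18, and NAC 75 Phvul.004G174000 averaged 24.1 ± 3.96 in nts and 49.5 ± 8.30 in A18 (SD, n = 3; edgeR adjusted p = 0.113 and 0.0935).

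The genes numbered MYB83, the direct activator of this tier in Arabidopsis, were named after their values were seen. Phvul.011G059800 averaged 23.7 ± 23.9 FPKM in nts and 15.97 ± 11.1 in A18, Phvul.004G046000 averaged 5.54 ± 6.70 in nts and 14.8 ± 8.66 in A18, and Phvul.011G212000 averaged 2.87 ± 3.33 in nts and 6.90 ± 3.25 in A18 (SD, n = 3; edgeR adjusted p = 0.758, 0.531 and 0.560). All 3 overlapped between the genotypes, and in all 3 the highest nts library was replicate 3.

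Among 12 tested genes with the numbers of other secondary wall MYBs, the median log2 change was 0.55, or -0.05 without nts replicate 3 and A18 replicate 2, and 3 genes lay far below it. The MYB52 gene Phvul.009G133700 had 0, 0 and 0.207 FPKM in nts replicates 1, 2 and 3, against 20.1, 9.79 and 25.6 FPKM in A18 replicates 1, 2 and 3 (edgeR adjusted p = 0.0705). The MYB52 gene Phvul.004G144900 averaged 0.821 ± 1.20 FPKM in nts and 34.2 ± 8.68 in A18, and the lignin activator MYB63 (Phvul.005G060000) averaged 0.233 ± 0.403 in nts and 10.8 ± 9.25 in A18 (SD, n = 3; edgeR adjusted p = 0.141 and 0.196). Over the list edgeR called 0, with 3 lower and 1 higher at an unadjusted p under 0.05, and DESeq2 called 2 lower.

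Repressor MYBs, which in Arabidopsis hold back phenylpropanoid genes, had a median log2 change of 0.14, which was -0.47 without nts replicate 3 and A18 replicate 2. Of 4 tested, 1 was below 0, edgeR and DESeq2 called 0, and 0 were lower and 1 higher at an unadjusted p under 0.05. MYB32 (Phvul.011G034900) had 136, 111 and 247 FPKM in nts replicates 1, 2 and 3, against 71.0, 106 and 89.9 FPKM in A18 replicates 1, 2 and 3 (edgeR adjusted p = 0.257). MYB4 Phvul.009G119900 averaged 34.8 ± 25.6 FPKM in nts and 35.6 ± 3.52 in A18, MYB4 Phvul.008G233800 averaged 2.19 ± 1.003 in nts and 2.00 ± 0.711 in A18, and MYB7 Phvul.002G092100 averaged 2.73 ± 2.04 in nts and 4.72 ± 2.98 in A18 (SD, n = 3; edgeR adjusted p = 0.966, 0.890 and 0.690). KNAT7, a homeobox partner of wall MYBs in Arabidopsis, has 2 genes here: Phvul.003G213500 averaged 5.99 ± 6.74 FPKM in nts and 47.3 ± 10.3 in A18, and Phvul.002G153300 averaged 36.4 ± 18.1 in nts and 100.4 ± 18.1 in A18 (SD, n = 3; edgeR adjusted p = 0.156 and 0.157). The first of them lies 92.8 kb from MYB85.

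The 63 other numbered MYBs that were tested had a median log2 change of -0.06, with 33 below 0. DESeq2 called 6 lower and 7 higher of 79 such MYBs with a value, against 6.02% and 4.44% of all genes it tested. EdgeR called none of the 63 over all genes. With 9.58% of all tested genes lower and 8.39% higher at an unadjusted p under 0.05, 8 of the 63 MYBs were lower and 7 higher. The lowest unadjusted p among them belonged to MYB15 Phvul.007G273400, at 0.959 ± 0.703 FPKM in nts and 17.8 ± 8.51 in A18, then MYB40 Phvul.004G057800, at 12.3 ± 2.40 in nts and 0.264 ± 0.239 in A18, and MYB48 Phvul.011G067000, at 0.685 ± 0.124 in nts and 5.66 ± 4.29 in A18 (SD, n = 3; edgeR adjusted p = 0.0648, 0.0925 and 0.102).

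Genes in the lists for the kinds that these factors activate in Arabidopsis mostly had log2 changes below 0. The lists were chosen with earlier results of these data known, so their counts describe them. Over all tested genes 9.58% were lower and 8.39% higher at an unadjusted p under 0.05. Of 32 tested genes in the list for secondary wall cellulose synthesis, 30 were below 0 with a median log2 change of -6.13, 1 was called lower and 0 higher by edgeR, and 23 were lower and 0 higher at an unadjusted p under 0.05. Most of this list, 21 genes, are FASCICLIN-like proteins 11 and 12, cell surface proteins with a median of -8.39, and the 11 others, cellulose synthases and a chitinase-like protein, had a median of -3.17 with 6 lower and 0 higher at an unadjusted p under 0.05. The FASCICLIN-like genes Phvul.011G074250 and Phvul.011G074200, neighbours between which reads may be shared, averaged 2.97 ± 1.92 and 2.76 ± 1.78 FPKM in nts, against 84.2 ± 29.8 and 67.1 ± 20.4 FPKM in A18 (SD, n = 3; edgeR adjusted p = 0.0541 for each), and Phvul.011G076900 averaged 0.334 ± 0.177 in nts against 230.5 ± 124 in A18 (edgeR adjusted p = 0.0319). Of 9 tested xylan genes, 8 were below 0 with a median of -2.94, 1 was called lower by edgeR, and 6 were lower and 1 higher at an unadjusted p under 0.05. Galacturonosyltransferase 12 (Phvul.011G141200), named for an enzyme of xylan synthesis, had 0.489, 0.679 and 4.01 FPKM in nts replicates 1, 2 and 3, against 40.6, 61.5 and 82.0 FPKM in A18 replicates 1, 2 and 3 (edgeR adjusted p = 0.0796). The DUF579 genes Phvul.001G262300 and Phvul.002G016200 averaged 4.75 ± 0.800 and 2.07 ± 2.49 FPKM in nts, against 39.1 ± 13.7 and 289 ± 87.5 FPKM in A18 (SD, n = 3; edgeR adjusted p = 0.0397 and 0.0644).

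Of 67 tested lignin genes, 45 were below 0 with a median log2 change of -1.62. None was called by edgeR over all genes. At an unadjusted p under 0.05, 24 were lower and 5 higher, against 9.58% and 8.39% of all tested genes. Of 74 lignin genes with a value, DESeq2 called 24 lower and 3 higher, against 6.02% and 4.44% of all genes it tested. O-methyltransferase 1 (Phvul.009G044400), which methylates syringyl precursors, had 40.3, 50.9 and 72.2 FPKM in nts replicates 1, 2 and 3, against 395, 291 and 714 FPKM in A18 replicates 1, 2 and 3 (edgeR adjusted p = 0.0564). The laccase Phvul.007G093200 had 0 counts in all nts libraries and 1.71, 5.67 and 3.54 FPKM in A18 replicates 1, 2 and 3 (edgeR adjusted p = 0.0663), and the laccase Phvul.008G107100 averaged 0.176 ± 0.132 in nts and 168 ± 148 in A18 (edgeR adjusted p = 0.0568, n = 3). Ferulic acid 5-hydroxylase 1 (Phvul.002G111900), the syringyl enzyme that needs MYB103 in Arabidopsis, was named after its values were seen. It had 24.3, 15.6 and 10.4 FPKM in nts replicates 1, 2 and 3, against 381, 120 and 770 FPKM in A18 replicates 1, 2 and 3 (edgeR adjusted p = 0.0663). The groups did not overlap. Of the other genes so described, Phvul.004G159900 averaged 15.9 ± 5.48 FPKM in nts and 8.82 ± 5.64 in A18 and overlapped (SD, n = 3, edgeR adjusted p = 0.454). Phvul.003G259200 averaged 0.150 ± 0.259 FPKM in nts and 1.46 ± 0.665 in A18 without overlap (SD, n = 3, edgeR adjusted p = 0.406). Phvul.004G159600 and Phvul.004G159800 overlapped, and Phvul.003G259100 and Phvul.004G159700 were at 0 in every library.

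**Figure D3:**
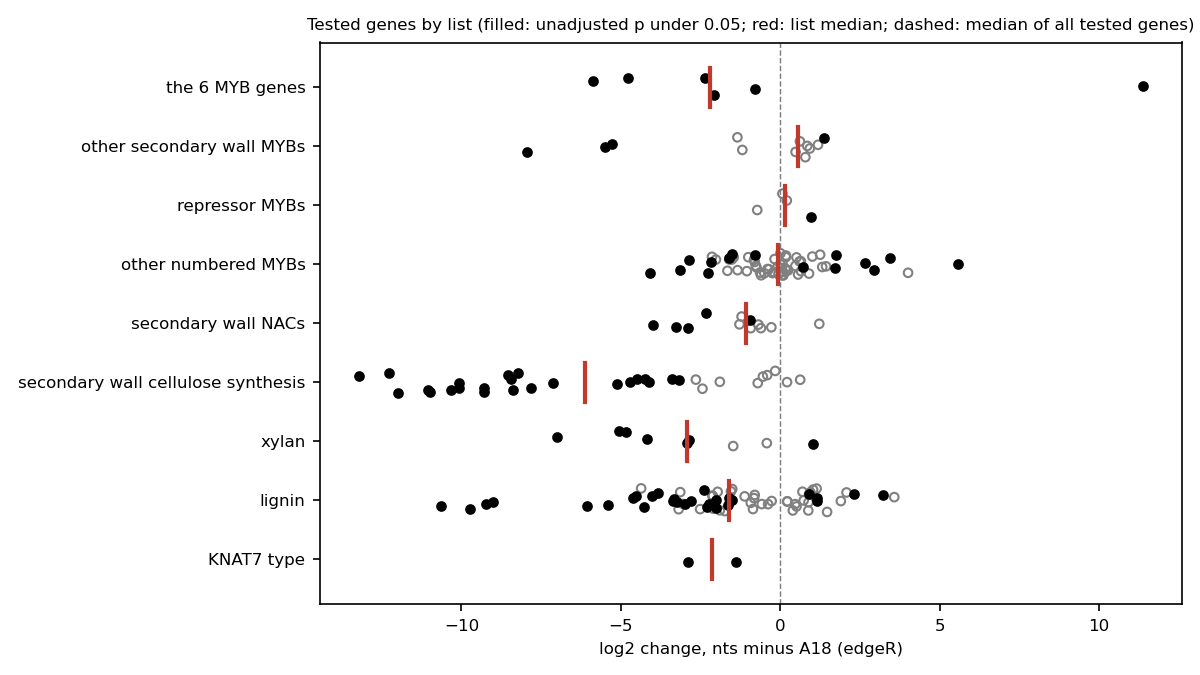
The log2 change (nts minus A18) of every tested gene in each list, filled at an unadjusted p under 0.05, with the list's median in red and the median of all tested genes dashed. The cellulose list, mostly FASCICLIN-like genes, has its median at -6.13 and the lignin list at -1.62, while the lists of other secondary wall MYBs and other numbered MYBs have theirs at 0.55 and -0.06; without nts replicate 3 and A18 replicate 2 these last medians were -0.05 and 0.07.

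The table's own annotation gives the term regulation of secondary cell wall biogenesis to 20 genes, 5 of them among the 6, and MYB26 is the one without it. Of the 13 other genes with the term that were tested, 9 were lower and 0 higher at an unadjusted p under 0.05, with a median log2 change of -2.33. The shares over all tested genes were 9.58% lower and 8.39% higher. Besides NAC 73, KNAT7, MYB52 and MYB63 genes, which also stand in the lists described before, the 9 include an ovate family protein 2 (Phvul.010G067800). It had a mean of 0.683 FPKM in nts and 3.55 in A18. MYB26 carries plant-type secondary cell wall biogenesis, anther dehiscence and response to gibberellin. Of the 59 other tested genes with the first of these terms, 35 were lower and 3 higher at an unadjusted p under 0.05, with a median log2 change of -3.17. Genes of this term can also stand in the lists of wall genes, so the count is not a separate result. Of the 9 other tested genes with anther dehiscence, 0 were lower and 0 higher at an unadjusted p under 0.05. Of the 71 with response to gibberellin, 5 were lower and 11 higher.

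The genes whose log2 CPM (counts scaled to library size) followed each MYB gene most closely over the 6 libraries were looked for among 19254 genes with a mean of at least 1 CPM. As the genotypes stand apart, a high Pearson r reflects mainly that step: between 216 and 356 genes reached r = 0.95 or more with any of the 6. Most alike to MYB85 was Phvul.003G214400, a UDP-D-glucuronate 4-epimerase 2 that lies 34.2 kb away beyond 3 other tested genes (r = 0.998), with 7.18, 7.72 and 8.42 FPKM in nts replicates 1, 2 and 3, against 34.7, 21.0 and 39.6 FPKM in A18 replicates 1, 2 and 3. An undescribed gene (Phvul.001G020800, r = 0.998) and an amino acid transporter (Phvul.002G113000, r = 0.998) came next. Most alike to MYB42 were a zinc transporter 5 (Phvul.006G003300), the FASCICLIN-like protein 11 Phvul.011G077000 and a thioesterase (Phvul.010G148100), each with r = 0.997. The zinc transporter had 0, 0.356 and 0.886 FPKM in nts replicates 1, 2 and 3, against 51.2, 16.4 and 63.8 FPKM in A18 replicates 1, 2 and 3, the same order of libraries as MYB42.

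MYB20 was followed by an O-acetyltransferase (Phvul.002G197200, r = 0.997), with 17.1, 17.7 and 50.2 FPKM in nts replicates 1, 2 and 3, against 70.3, 169 and 112 FPKM in A18 replicates 1, 2 and 3, then by eukaryotic release factor 1-3 (Phvul.001G097700) and germin-like protein 10 (Phvul.007G206600), each with r = 0.995. The MYB103 gene Phvul.002G159700 was followed by a BTB/POZ/MATH-domain protein (Phvul.001G236400, r = 0.999), a CCCH zinc finger protein (Phvul.008G260900, r = 0.995) and laccase 2 (Phvul.008G119201, r = 0.995). The laccase had 0.245, 0 and 49.5 FPKM in nts replicates 1, 2 and 3, against 177, 503 and 402 FPKM in A18 replicates 1, 2 and 3. Phvul.002G292600 was followed by a CLP protease subunit (Phvul.009G052400, r = 0.999), a protein kinase (Phvul.008G002500, r = 0.997) and a copine (Phvul.001G255900, r = 0.997), whose log2 changes were between -0.71 and -0.36. MYB26 was followed by a 2-oxoglutarate oxygenase (Phvul.005G058800, r = 0.997), a Rossmann-fold protein (Phvul.010G159000, r = 0.997) and a pentatricopeptide repeat protein (Phvul.003G194000, r = 0.995). The oxygenase had 7.18, 9.18 and 6.46 FPKM in nts replicates 1, 2 and 3, against 1.005, 0.792 and 0.830 FPKM in A18 replicates 1, 2 and 3. Among the 6 genes themselves r was 0.948 for MYB85 with MYB42 and 0.957 for MYB20 with Phvul.002G159700, but 0.661 for Phvul.002G159700 with Phvul.002G292600, as a description over 6 libraries.

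The tested genes directly beside the 6 had log2 changes between -2.05 and 0.55, and none was called by edgeR over all genes. Beside MYB85, an HSP70-interacting protein 1 (Phvul.003G214200) had a log2 change of 0.25 and a copper ion binding protein (Phvul.003G214325) one of 0.37. Beside MYB20, plasmodesmata-located protein 7 (Phvul.001G229800) had -0.41 and a family 17 glycosyl hydrolase (Phvul.001G230000) -0.42. So MYB85 and MYB20, whose own changes were far larger, lay between genes near 0. Beside MYB42, an EF-hand protein (Phvul.002G060300) had 0.49 and a receptor kinase (Phvul.002G060600) -1.56. Beside Phvul.002G159700, the Plectin/S10 protein Phvul.002G159600 had 0.15 and isoprenoid F (Phvul.002G159900) -0.06. The steepest neighbour belonged to the MYB103 gene that itself differed least. Beside Phvul.002G292600, the Plectin/S10 protein Phvul.002G292500 had 0.53, and Phvul.002G292700, a gene described as roh, had -2.05 with 1.50, 1.39 and 2.05 FPKM in nts replicates 1, 2 and 3, against 7.54, 3.71 and 10.9 FPKM in A18 replicates 1, 2 and 3 (edgeR adjusted p = 0.0962). Beside MYB26, a SurE-like phosphatase (Phvul.005G157500) had -0.13 and IQ-domain 6 (Phvul.005G157700) had 0.55. Further out, the cytochrome P450 Phvul.003G214350 near MYB85 had -3.81 and the heavy metal transport protein Phvul.002G292900 near the MYB103 gene Phvul.002G292600 had -7.45 (edgeR adjusted p = 0.0811 and 0.113).

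**Figure D4:**
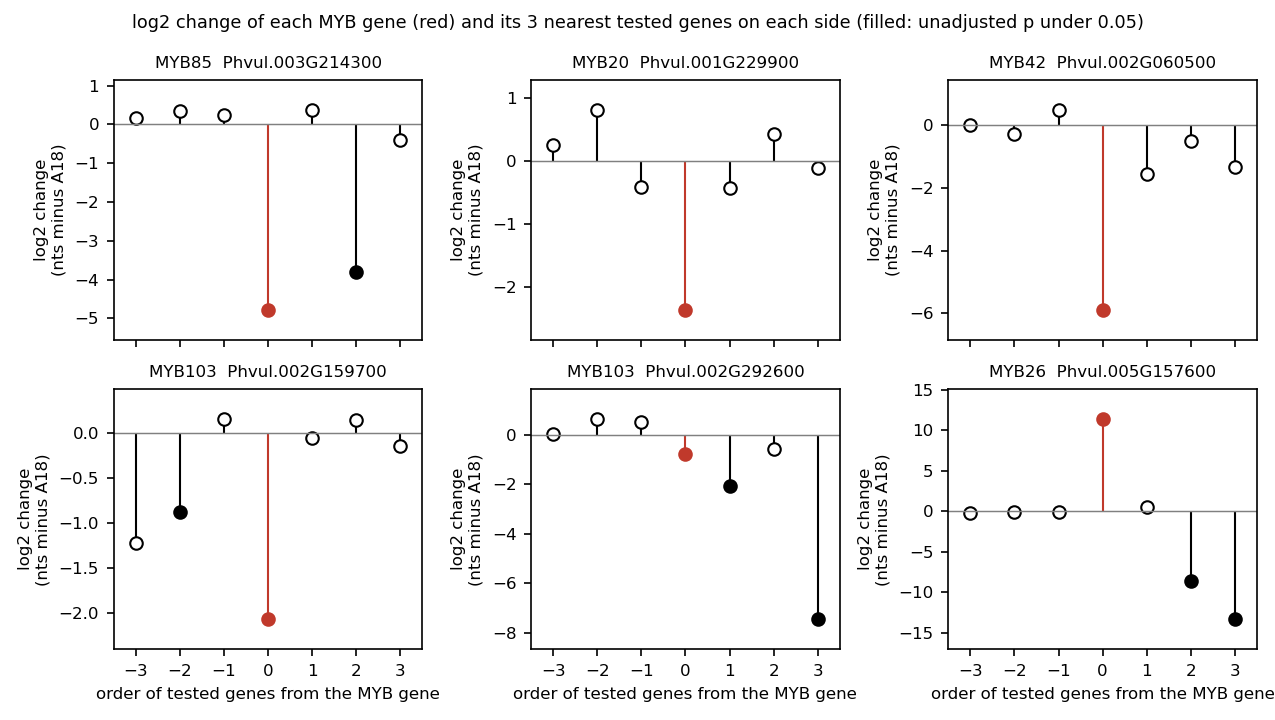
The log2 change (nts minus A18, edgeR) of each MYB gene in red and of the 3 nearest tested genes on each side in black, in gene order, filled at an unadjusted p under 0.05; each panel has its own axis. MYB26 at 11.37 has at positions 2 and 3 the genes with -8.65 and -13.32, and the direct neighbours of MYB85, MYB20 and MYB26 lie between -0.42 and 0.55.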

How the data were processed

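The deposited table holds counts per gene and FPKM values, which the authors computed, per the file headers. The submitters' processing notes name cutadapt 1.9 and FastQC; for aligner, counter, strand setting and genome build the sources used here say nothing. FPKM of genes with 0 counts, deposited as 0.0001, was set to 0. Total counts ran from 40728394 to 62695701 per sample, and floors cover counting error only. All per-sample columns were used.

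Counts were tested with edgeR 4.0.16 in R 4.3.3 (quasi-likelihood F test, robust, TMM factors, filterByExpr), with genotype as the only term and all 6 samples, adjusted over 21126 genes; log2 changes are nts minus A18, and each SE was derived from the change and its F statistic, so it restates the test. The fitted change of MYB26 depends on the prior count. The ratio of the MYB103 genes had an exact permutation test (scipy 1.17.1). Alternatives were DESeq2 1.42.0, limma 3.58.1 (voom with quality weights, and log2(FPKM + 1) or log2(FPKM + 0.1) where mean FPKM reached 0.5), other scaling factors, no filter, a replicate block and left-out libraries. The procedure was tested on simulated data. The 6 genes and the lists were chosen with earlier results of these data known. Named were the 6 genes, every tested gene of lists with 6 or fewer, otherwise the 3 with the lowest unadjusted p at a mean of at least 1 FPKM in a genotype, the 3 genes most alike and the tested neighbours; exceptions are marked. List calls by DESeq2, and with both intermediate libraries left out, were added after seeing the data. No sequence is shown.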

Additional observations from a re-analysis of the deposited data

How the results depend on the processing

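In all 15 alternatives run for each of the 6 MYB genes, MYB26 stayed higher and the other 5 lower in nts; what changed was the side of the threshold. Of the 15, MYB85 was called in 10, MYB26 in 8, MYB42 in 5, MYB20 in 4, Phvul.002G159700 in 3 and Phvul.002G292600 in 2. Over all tested genes the count was 20 at the settings reported and 1 of the 6 was called. It was 37 with no filter (2 of the 6; MYB26 at 11.37), 2380 with DESeq2 (4 of the 6; MYB20 at -2.37, MYB42 at -5.89, MYB26 at 10.76), 5087 with limma voom and quality weights (6 of the 6; MYB20 at -2.81, MYB42 at -8.92, Phvul.002G159700 at -3.06, Phvul.002G292600 at -0.96, MYB26 at 9.62), 439 with limma on log2(FPKM + 1) (3 of the 6; MYB42 at -3.45, MYB26 at 2.89) and 418 on log2(FPKM + 0.1) (3 of the 6; MYB42 at -5.54, MYB26 at 6.02). Without A18 replicate 2 and nts replicate 3 it was 4267 (6 of the 6; MYB20 at -2.91, MYB42 at -7.55, Phvul.002G159700 at -3.28, Phvul.002G292600 at -1.12, MYB26 at 11.73). The smaller change of MYB26 on the FPKM scales follows from the pseudocount; the other causes were not tested.

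With 1 library left out, edgeR called 0 to 964 genes and 0 to 4 of the 6. No gene was called with nts replicate 1 left out, with A18 replicate 1 left out or with A18 replicate 3 left out, although 2418, 2717 and 2483 were under 0.05 before adjustment. The count was 945 without A18 replicate 2, 964 without nts replicate 3 and 1 without nts replicate 2. The log2 changes then ran from -5.07 to -4.50 for MYB85, -3.32 to -1.90 for MYB20, -7.09 to -5.26 for MYB42, -3.57 to -1.58 for Phvul.002G159700, -0.98 to -0.60 for Phvul.002G292600 and 11.23 to 11.64 for MYB26. At the design text's thresholds 1147 genes (711 lower, 436 higher) became 1013 to 1768 with 1 library left out (841 lower and 927 higher without A18 replicate 2), 2333 with quality weights and 2477 without both libraries. With a replicate block edgeR called 0 genes and 0 of the 6 (3192 at an unadjusted p under 0.05), MYB85 being at -4.69 with an adjusted p of 0.119. The labels do not state whether the numbers pair the samples. Deviations from the genotype means correlated at -0.02, -0.10 and 0.04 for libraries of the same number, and nts replicate 1 correlated best with A18 replicate 2. With 3 libraries per genotype these deviations sum to 0, so the correlations cannot decide whether samples were paired. The log2 ratio of the MYB103 genes stayed lower in nts, from -2.79 to -1.33.

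With A18 replicate 2 and nts replicate 3 left out, edgeR called 27 of 32 cellulose genes, 7 of 9 xylan genes and 27 of 69 lignin genes as lower, and 0, 1 and 8 as higher, with 3 of 12 other secondary wall MYBs and 6 of 12 NAC genes lower and 0 and 1 higher. In that fit 10.3% of all tested genes were called lower and 9.67% higher. Its left-out libraries were picked as intermediate in these same data, so these calls are no separate evidence.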

Other observations

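The third tested gene after MYB26 has the opposite on and off pattern, which was seen after the values were examined. Phvul.005G157900, which carries no description, starts 23.9 kb from MYB26 on chromosome 5 and had 0 counts in all 3 nts libraries, against 1193, 468 and 2308 counts in A18 replicates 1, 2 and 3. Of the table's genes, 4 had 0 counts in every nts library and at least 181 in every A18 library. The reverse held for 3. The cut-off of 181 is the lowest nts count of MYB26. Phvul.005G157900 is among the 4 and MYB26 among the 3. Between them, a calmodulin-binding family protein (Phvul.005G157800) also had 0 counts in all 3 nts libraries, against 48, 14 and 96 counts in A18 replicates 1, 2 and 3, while IQ-domain 6 (Phvul.005G157700) had 894, 1042 and 125 counts in nts replicates 1, 2 and 3, against 700, 237 and 437 counts in A18 replicates 1, 2 and 3. The others of the 4 were a cationic amino acid transporter 6 (Phvul.003G225700), a cytochrome P450 of family 81 (Phvul.009G244200) and a FASCICLIN-like protein 11 (Phvul.011G077200).

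All 6 MYB genes carry in the table the KEGG orthology entry and the pathways of a mitochondrial assembly protein, as do 83 genes in all, of which 79 are described as MYB genes. Pathway counts from that column therefore place MYB genes under oxidative phosphorylation.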
